A study of Mus musculus with 18 samples.

Results

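The replication-dependent histone genes encode the H1, H2A, H2B, H3 and H4 proteins that package newly copied DNA. They were read from the gene symbols: 73 of the 55138 genes of the deposited FPKM table had a symbol starting with Hist1h, Hist2h, Hist3h, Hist4h, H1f, H2ac, H2bc, H3c, H4c or H4f. The 73 held 6 H1, 17 H2A, 17 H2B, 12 H3 and 13 H4 genes, 65 in all, that are described below as replication-dependent. The symbols also took in 4 linker histone genes whose messages carry poly(A) tails or are restricted to germ cells (H1f0, H1f10, H1f7 and H1f8) and 4 pseudogenes (H2ac14, H2ac5-ps, H1f11-ps and Hist1h2al). Of the 73, 56 lay in the Hist1 cluster on chromosome 13, 10 in the Hist2 cluster on chromosome 3 and 7 elsewhere.

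Histone messages are made in S phase, have no introns in most genes and end in a short hairpin instead of a poly(A) tail. The stem-loop binding protein Slbp holds that hairpin, and the U7 small nuclear ribonucleoprotein, with Lsm10 and Lsm11, directs the cut that forms the end of the message. Npat and Casp8ap2 act at the histone locus body, where these genes are transcribed. Because each core histone is encoded many times, a dividing embryo draws on all the copies together.

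The libraries came from mouse embryos without their heads, 3 per group, and the labels do not say whether a library is 1 embryo or a pool. At E9.5 the groups were homozygous HoxB Del(i9-13) and wild-type littermates. At E10.5 they were homozygous Del(i9-13), homozygous Del(i9-13):Hoxb13hd, homozygous Hoxb13hd and wild-type littermates. The labels call Del(i9-13) a HoxB mutation, here taken as a deletion between Hoxb9 and Hoxb13, and they do not spell out hd. RNA was purified on RNeasy columns, and stranded TruSeq kits were used at both stages, with poly(A) enrichment at E9.5 and ribosomal RNA depletion at E10.5. Stage and library type therefore cannot be told apart, and genotypes were compared within a stage. Strain, sex and litter are not in the labels, and a p-value here weighs a difference against the spread of 3 libraries per group, which may be technical.

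Libraries held 29829820 to 35934843 counts at E9.5 and 19333138 to 25722951 at E10.5. Markers of the removed head summed to 12.6 to 38.3 CPM (counts divided by the library total and rescaled, the totals adjusted for composition with TMM) over the 18 libraries. Summed liver bud and visceral endoderm markers ran from 268 to 1106 CPM in Del(i9-13) at E10.5 and from 17.1 to 94.8 CPM in Hoxb13hd, so that the tissue content of the libraries was not the same. The part of that difference in the histone values was not tested. In such bulk libraries, fewer dividing cells and less histone RNA per dividing cell cannot be told apart.

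The hairpins are shown first because they stand in place of the tail that poly(A) enrichment captures. In GENCODE M21 transcripts, a hairpin of 16 bases with arms GGNNCT and AGNNCC around a TTTC loop lay within 200 bases after the stop codon of 33 members, at 25 to 59 bases from it. A looser search (a loop starting TT, at least 5 of 6 arm bases paired) added 9 members, at 22 to 39 bases. A further 8 had no match, and 15 had under 16 bases annotated after the stop codon, so that nothing could be found there. Among the 8, H1f1 and H3c13 had only 48 and 37 bases annotated there, so that a hairpin beyond the annotated end would be missed. The sense strand of 11 members is given 5′ to 3′ with the hairpin in capitals and 5 bases on each side.
H1f2: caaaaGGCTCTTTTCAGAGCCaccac
H2ac4: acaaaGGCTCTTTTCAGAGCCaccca
H2bc14: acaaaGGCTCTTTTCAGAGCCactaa
H3c2: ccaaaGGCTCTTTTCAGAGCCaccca
H1f6: ccaaaGGCTCTTTTAAGAGCCactta
H3c3: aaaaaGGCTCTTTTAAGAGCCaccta
H4c4: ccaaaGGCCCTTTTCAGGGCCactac
H4f16: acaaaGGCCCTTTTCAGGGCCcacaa
H4c11: ctaaaGGTCCTTTTCAGGACCaccac
H4c14: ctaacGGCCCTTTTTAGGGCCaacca
H4c9: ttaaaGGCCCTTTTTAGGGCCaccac
H1f2, H2ac4, H2bc14 and H3c2 shared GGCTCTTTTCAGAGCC, the form of 24 of the 33 members. H4c4 and H4f16 carried the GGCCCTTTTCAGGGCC form of 7 members, with 0 differences between them, although H4f16 lies outside both clusters at chr6:136801553-136804415 (mm10, minus strand). Counted from 1 at the 5′ end of the hairpin, H1f6 and H3c3 differed from H1f2 by C10A, in the loop. H4c14 and H4c9 differed from H4c4 by C10T, in the loop, and H4c11 differed from it by C3T and G14A, which pair with each other across the stem.

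The poly(A)-enriched E9.5 libraries held little histone RNA. The 73 genes took 0.0361 to 0.0452% of the E9.5 counts, and 91.1 to 94.6% of that came from H1f0 and H1f10 together with the near-silent H1f7 and H1f8. In the ribo-depleted E10.5 libraries they took 1.42 to 2.06%, of which 97.0 to 98.2% was replication-dependent. These are descriptions of 2 kinds of library and give no change between stages. After a filter on low counts, 21 of the 73 could be tested at E9.5 and 61 at E10.5. The 52 left out at E9.5 had at most 23 counts in a library, and 9 of them had 0 counts throughout. The 12 left out at E10.5 had at most 15 counts, among them H2ac1 and H2bc1, which are known from testis.

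Grouping the replication-dependent genes by hairpin did not single out 1 category at E9.5. A mean of at least 1 CPM at E9.5 was reached by 1 of the 33 genes with the main hairpin (H1f2), 1 of 9 with the looser form (H4c9), 2 of 8 with no match (H2bc4 and H2bc21), 0 of 15 without enough annotated sequence and 2 of the 4 linkers outside the replication-dependent class (H1f0 and H1f10). The median member of the main-hairpin category stood at 0.178 CPM at E9.5, and the median without a match at 0.244 CPM. H2bc4 and H2bc21 belong to the histone genes for which longer, polyadenylated messages are known.

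**Figure D1:**
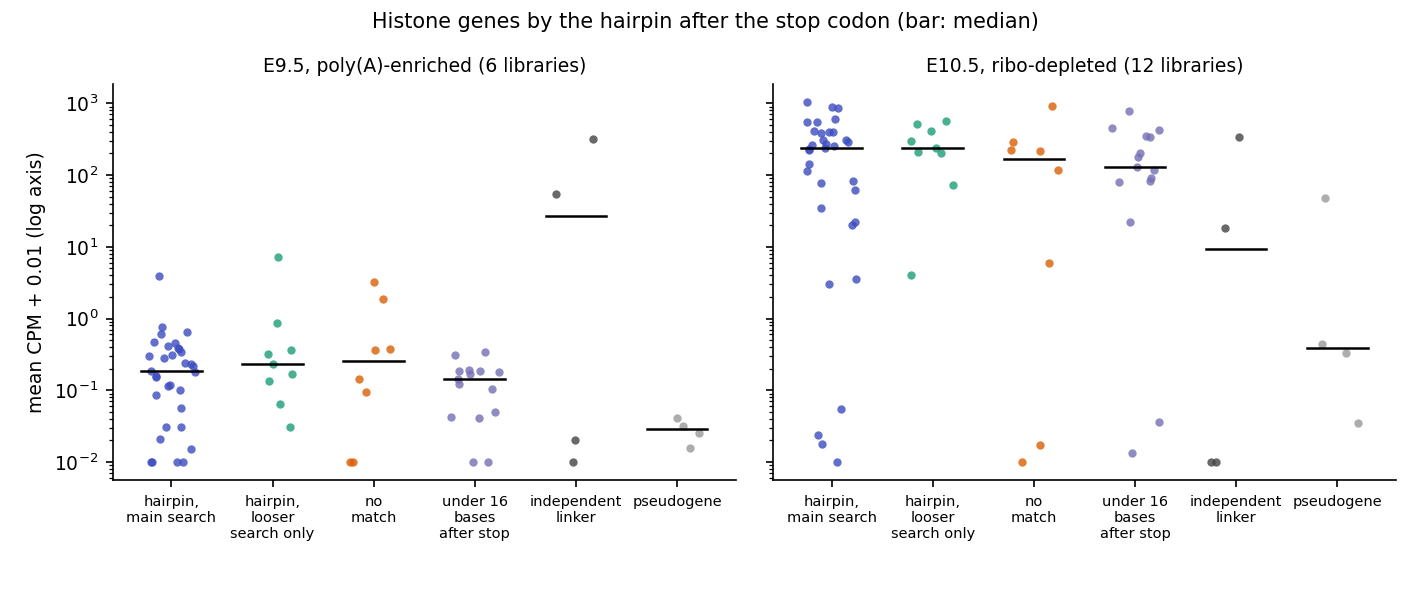
Mean CPM plus 0.01 (log axis) of each of the 73 histone genes over the 6 poly(A)-enriched E9.5 libraries (left) and the 12 ribo-depleted E10.5 libraries (right), by what was found after the stop codon; the bar is the median of the category. At E9.5, 1 of 33 genes with the main hairpin reached 1 CPM (H1f2), and the 2 highest points are the linkers H1f0 and H1f10; the panels differ in library type as well as stage.

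Compared per length, in FPKM (fragment counts divided by transcript length and library size), the E10.5 embryo drew on several copies of each histone. Among linker histones, H1f1 led with a mean of 891 FPKM over the 12 libraries (719 to 1059), followed by H1f5 at 605 and H1f4 at 331. H2ac15 and H2ac4 headed H2A at 384 and 375 FPKM, with H2ac20 at 292. The highest value was that of H2bc18 at 1196 FPKM, ahead of H2bc3 at 791 and H2bc14 at 754. These orders hold only as far as each gene's reads can be assigned, and they depend on annotated length. H2bc18 is annotated at 381 bases, ending at the stop codon, and H2bc3 at 508. In wild type H2bc3 had 11590, 12364 and 11241 counts and H2bc18 9407, 10626 and 9796. H1f3, annotated at 7425 bases, had 17495, 21057 and 18933 counts there, beside 18951, 20672 and 19050 for H1f1. H3c6 at 443 FPKM, H3c2 at 357 and H3c3 at 345 led H3, and their ranges over libraries overlapped, the highest H3c3 value (441) lying close to the H3c6 mean. H4c8 at 847, H4c6 at 734 and H4c4 at 640 led H4. In wild type H4c4, annotated at 1138 bases, had 20796 to 22865 counts, and H4c8, annotated at 470 bases, had 9918 to 12000. The replication-independent linker H1f0, which accumulates in cells that leave the cycle, stood at 118 FPKM at E10.5, and H1f10 at 10.9.

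At E9.5 the same 2 linkers led, H1f0 at 126 FPKM and H1f10 at 36.6. Only H4c9 (8.21 FPKM), H1f2 (2.06), H2bc4 (1.22) and H3c3 (1.12) of the replication-dependent genes had a mean above 1, and H2ac8 led H2A at 0.418. All 17 H2A genes were under 1 FPKM there. The E9.5 values of single histone genes therefore rest on few reads.

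The likeness of the copies limits what can be said of 1 gene. The 13 H4 genes held 12 coding sequences and 1 protein of 103 residues, the 12 H3 genes 3 proteins, the 17 H2A genes 8, the 17 H2B genes 11 and the 6 H1 genes 6. For 37 of the 73 members, over 50% of their 50-base windows occurred in a transcript of another gene, and for 13 over 90%. The pairs H2ac18 and H2ac19, Hist1h2ao and Hist1h2ap, and Hist1h2bq and Hist1h2br are near-identical and were among the genes with almost no counts, so that low expression and reads lost to the other copy cannot be told apart. Of the genes named below, H1f6 shared 0% of its windows, H4c14 1.01%, H4f16 8.52%, H4c4 10.2%, H4c9 28.9%, Hist1h2al 67.6% and Hist1h4m 89.8%.

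The promoters are shown because the H4 gene that changed most, H4f16, can be set beside 2 abundant cluster genes. RefSeq (GRCm38.p6) gave 57 promoters, from 250 bases before to 50 after the start, for 56 of the 73 members. The 250 bases before the start are printed 5′ to 3′ on the gene's strand for H4f16 (chr6:136804432-136804681, minus strand), H4c4 (chr13:23581318-23581567, plus strand) and H2bc3 (chr13:23746484-23746733, plus strand), with the TATA box (TATAAA), the CCAAT box and the octamer (ATTTGCAT) on either strand in capitals.
H4f16: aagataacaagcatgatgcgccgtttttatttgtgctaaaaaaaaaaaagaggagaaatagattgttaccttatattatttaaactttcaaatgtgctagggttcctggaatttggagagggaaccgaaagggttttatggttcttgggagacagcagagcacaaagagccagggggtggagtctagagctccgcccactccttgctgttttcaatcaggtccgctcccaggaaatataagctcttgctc
H4c4: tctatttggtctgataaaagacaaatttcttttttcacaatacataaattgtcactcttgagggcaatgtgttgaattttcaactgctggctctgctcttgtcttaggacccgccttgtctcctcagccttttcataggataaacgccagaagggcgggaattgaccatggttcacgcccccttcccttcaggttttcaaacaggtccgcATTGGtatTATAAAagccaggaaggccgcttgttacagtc
H2bc3: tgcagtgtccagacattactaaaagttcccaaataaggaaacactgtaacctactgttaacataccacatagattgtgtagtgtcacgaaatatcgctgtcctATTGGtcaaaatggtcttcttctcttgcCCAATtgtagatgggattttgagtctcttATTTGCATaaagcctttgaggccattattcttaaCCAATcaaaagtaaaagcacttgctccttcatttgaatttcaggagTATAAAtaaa
H4c4 held 1 TATA box and 1 CCAAT box in this stretch, H2bc3 held 1 TATA box, 3 CCAAT boxes and 1 octamer, and H4f16 held 0 of each. The CCAAT box occurred in 100% of the H1, H2A, H2B and H3 promoters, in 30% of the H4 promoters and in 37.4% of all 32851 RefSeq promoters of the same length. The TATA box occurred in 66.7% of H1, 71.4% of H2A, 46.2% of H2B, 40% of H3 and 60% of H4 promoters, against 13.6% of all. The octamer, known from H2B promoters, was in 53.8% of H2B promoters and 42.9% of H2A promoters, in 0 of the H1, H3 and H4 promoters, and in 1.74% of all. These matches describe the letters in the window.

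At E9.5, no histone gene passed the test between Del(i9-13) and wild type. With edgeR's quasi-likelihood test and Benjamini-Hochberg adjustment across the whole table (threshold 0.05), 0 of 21 members were called, beside 0.362% of all 16041 genes tested. 1 of the 21 (H2bc4) had an unadjusted p under 0.05, beside 1876 of all 16041 genes. DESeq2 called 0, beside 334 of all 29002 genes, and the median log2 fold change was 0.10 against 0.00 over all genes. The libraries of the groups did not overlap for 3 of the 21, against 18.9% of all genes.

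The largest differences at E9.5 were those of H2bc4, H4c9 and H2ac8. H2bc4 stood at 1.57, 0.669 and 1.19 CPM in wild type and at 1.60, 2.72 and 3.27 CPM in Del(i9-13), a log2 difference of 1.13 ± 0.36 (SE; adjusted p = 0.295, edgeR). Every Del(i9-13) value lay above every wild-type value, the lowest by a narrow margin. H4c9, the H4 gene with most E9.5 reads, stood at 6.53, 1.71 and 6.16 CPM in wild type and at 10.4, 10.7 and 8.43 CPM in Del(i9-13) (log2 1.03 ± 0.48, adjusted p = 0.494). Wild-type library 2 was far below the other two, and the 3 Del(i9-13) libraries were higher than all 3 wild-type ones. H2ac8 was at 0.697 CPM or less in every E9.5 library (log2 0.69 ± 0.58, adjusted p = 0.678). Summed over the 65 replication-dependent genes, the CPM were 27.7, 20.6 and 25.3 in wild type and 33.3, 30.5 and 32.3 in Del(i9-13). Those sums did not overlap. H4 made up 4.18 to 9.14 CPM of the wild-type sums and 11.4 to 13.7 CPM of the Del(i9-13) sums. H4c9 alone held 1.71 to 6.53 and 8.43 to 10.7 CPM of them, so the gap rests in good part on that gene. The H2B sums also did not overlap (6.49 to 7.99 against 8.23 to 10.2 CPM), while those of H1, H2A and H3 did. H1f0, with 279 to 354 CPM over the 6 libraries, had a log2 difference of 0.01 ± 0.08 (adjusted p = 0.972).

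At E10.5 the replication-dependent genes of a library tended to move together, and their sums overlapped between genotypes. Their summed CPM were 14499.6, 16439.7 and 14474 in wild type, 13382, 20294 and 18129 in Del(i9-13), 16992, 17841 and 14304 in Del(i9-13):Hoxb13hd and 15137, 18293 and 19054 in Hoxb13hd. Wild type thus averaged 15138 ± 1128 CPM (SD, n = 3) and Del(i9-13) 17268 ± 3535, and both the lowest and the highest of the 12 libraries were Del(i9-13).

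**Figure D2:**
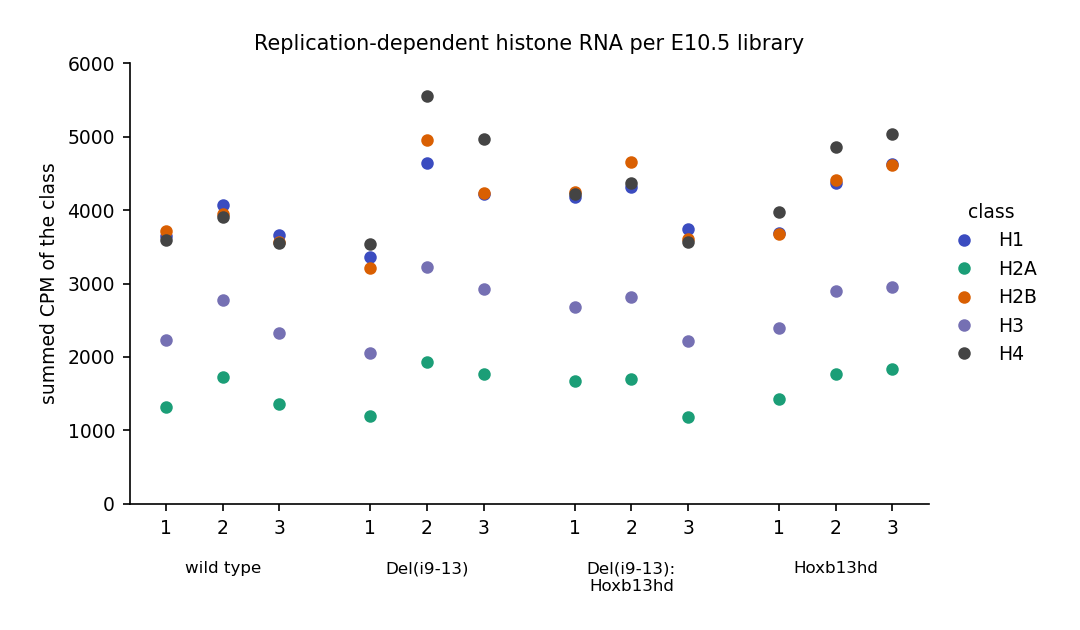
Summed CPM (from 0) of the replication-dependent genes of each class, 1 point per class in each of the 12 E10.5 libraries, grouped by genotype; numbers on the horizontal axis are replicate labels without order. In Del(i9-13) library 1 all 5 classes lie at the bottom of that group and in library 2 at the top; the classes overlap between each mutant and wild type, except H4 in Hoxb13hd (3966 to 5036 CPM against 3555 to 3907), whose sums overlap once H4f16 is left out (3565 to 4521 against 3351 to 3674).

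In each group nearly all of these genes had the same library at 1 extreme, though the other places were split in wild type and Hoxb13hd. Of the 57 tested replication-dependent genes, 55 were lowest of the 3 Del(i9-13) libraries in library 1 and 52 highest in library 2, where 42.4% and 36.6% of all genes had that place. In wild type 47 of 57 were highest in library 2 (31.3% of all genes), in Del(i9-13):Hoxb13hd 53 were lowest in library 3 (35.7%), and in Hoxb13hd 53 were lowest in library 1 (36.5%). The lowest place in wild type was split between library 1 (32 genes) and library 3 (24), and the highest in Hoxb13hd between library 3 (42) and library 2 (14). The median coefficient of variation between replicates was 22.3% for these genes in Del(i9-13) against 12.6% for all genes, while counting alone would give 1.31%. In Hoxb13hd it was 12.2% against 10.4%. Counting error was a small part of the spread at E10.5.

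Other RNAs without a poly(A) tail deviated by about as much as the histone messages in the Del(i9-13) replicates. The median log2 deviation of the 57 histone genes from their group mean was -0.38 in Del(i9-13) library 1 and 0.27 in library 2. For 9 RNAs without a tail outside the histone genes, among them the RNA of RNase MRP (Rmrp) and the 7SK RNA (Rn7sk), it was -0.41 and 0.32. Rmrp itself stood at 4457, 8411 and 6192 CPM in the 3 Del(i9-13) libraries. The signs matched those of the histones in 10 of 12 libraries, the exceptions being Del(i9-13):Hoxb13hd libraries 1 and 3 (-0.18 and 0.08 against 0.06 and -0.20). A match in sign was not particular to these RNAs: the replication-independent variants matched in 12 libraries, the S phase genes, chaperones and processing factors in 10 each and the G2 and M phase genes in 9. In size the other lists deviated less in these 2 libraries: the 9 replication-independent histone variants had -0.26 and 0.13, the 35 S phase and replication genes -0.12 and 0.09, and the 24 histone chaperones -0.01 and 0.00. The part of RNA recovery, of rRNA depletion or of the share of cells in S phase in this was not tested.

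**Figure D3:**
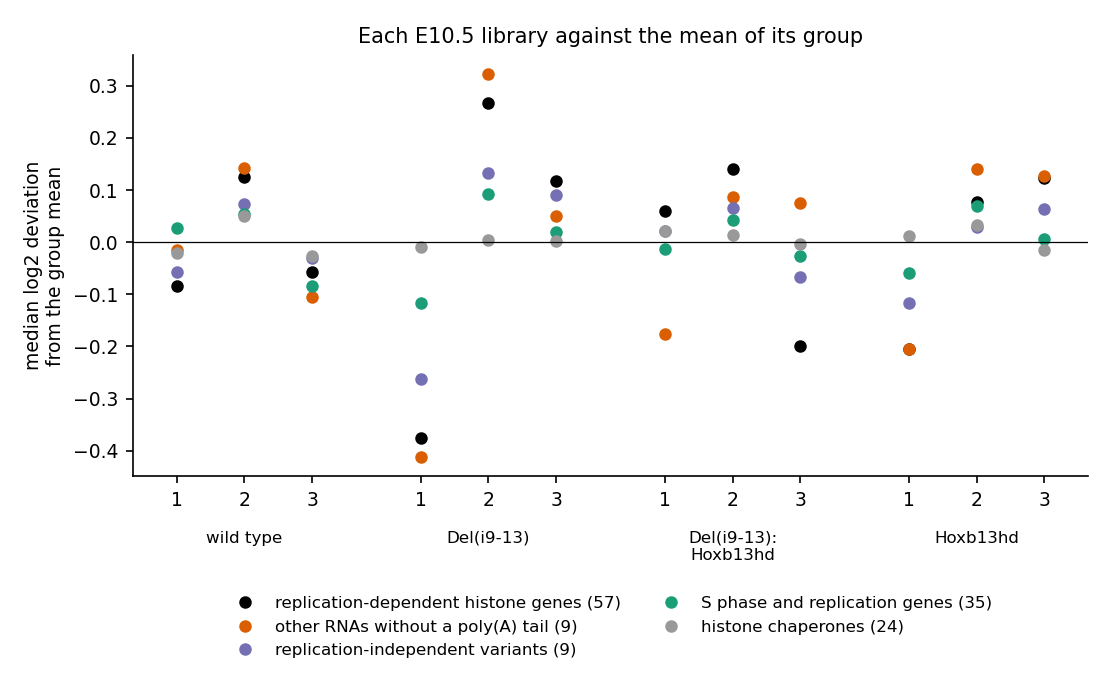
Median log2 deviation of each gene list from the mean of its group, 1 point per list in each of the 12 E10.5 libraries (number of genes in parentheses; replicate labels have no order). In Del(i9-13) library 1 the replication-dependent histone genes (-0.38) and the other RNAs without a poly(A) tail (-0.41) lie together at the bottom, while the chaperones span 0.08 over the 12 libraries.

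Del(i9-13) against wild type at E10.5 asked whether the mutation altered histone expression, and 1 of 61 tested members was called, beside 0.488% of all 17202 genes tested. That gene was H4f16, which rose. The members leaned upwards, mostly without passing: 51 of 61 had a positive log2 change, beside 8692 of all 17202 genes. Their median was 0.11 against 0.00 for all genes. An unadjusted p under 0.05 was reached by 8 of the 61, beside 1570 of all genes. By class, 4 of 6 H1, 12 of 12 H2A, 12 of 14 H2B, 10 of 12 H3 and 11 of 13 H4 genes were positive, with medians of 0.11, 0.10, 0.11, 0.12 and 0.26. The groups did not overlap for 3 of the 61, against 13% of all genes. The median rested on single libraries: it was 0.26 without Del(i9-13) library 1 and -0.0025 without library 2. Without Del(i9-13) library 1, 4 of 61 members were called, beside 285 of all 17497 genes, against 84 of all 17202 genes with every library. Without wild-type library 1, 3 of 61 members were called. Over the refits without 1 library, all genes called ran from 40 to 285.

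H4f16, an H4 gene on chromosome 6 outside both clusters, was the member that set the genotypes apart. It stood at 221, 233 and 204 CPM in wild type, 488, 782 and 635 in Del(i9-13), 249, 261 and 216 in Del(i9-13):Hoxb13hd and 401, 506 and 515 in Hoxb13hd. Both single mutants lay above both other groups in every library, and the double mutant overlapped wild type. In Del(i9-13) it was 2.89-fold wild type (log2 1.53 ± 0.15, adjusted p = 0.000265, edgeR). In Hoxb13hd it was 2.16-fold wild type (log2 1.11 ± 0.15, adjusted p = 0.00418), and in Del(i9-13):Hoxb13hd the difference from wild type was 0.14 ± 0.15 (adjusted p = 0.741). The double mutant was lower than either single mutant. Against Hoxb13hd the log2 change was -0.97 ± 0.15 (adjusted p = 0.0145), and against Del(i9-13) it was -1.39 ± 0.15 (adjusted p = 0.000566). The interaction, which compares the deletion difference in the presence of hd with that in its absence, was -2.50 ± 0.21 on the log2 scale (adjusted p = 6.85e-05).

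The difference was also present within the H4 class, where the block movement of a library cancels. H4f16 made up 6.14, 5.97 and 5.75% of the summed H4 CPM in wild type, 13.8, 14.1 and 12.8% in Del(i9-13), 5.91, 5.99 and 6.06% in the double mutant and 10.1, 10.4 and 10.2% in Hoxb13hd. The Del(i9-13) replicates, spread from 488 to 782 CPM, lay between 12.8 and 14.1% on this scale. H4c4, which has the same hairpin, took 24.6 to 26.8% of H4 in wild type and 23.0 to 24.2% in Del(i9-13). The H4 sum includes H4f16, so a rise of H4f16 by itself lowers that share. The CPM of H4c4 showed no called change in any comparison. The leaving out of any 1 library kept the call of H4f16 in 4 of the 5 contrasts in which it was called. Against Hoxb13hd it was lost without any of 4 libraries (Del(i9-13):Hoxb13hd 1 or 3, Hoxb13hd 2 or 3; adjusted p 0.0554 to 0.0623).

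**Figure D4:**
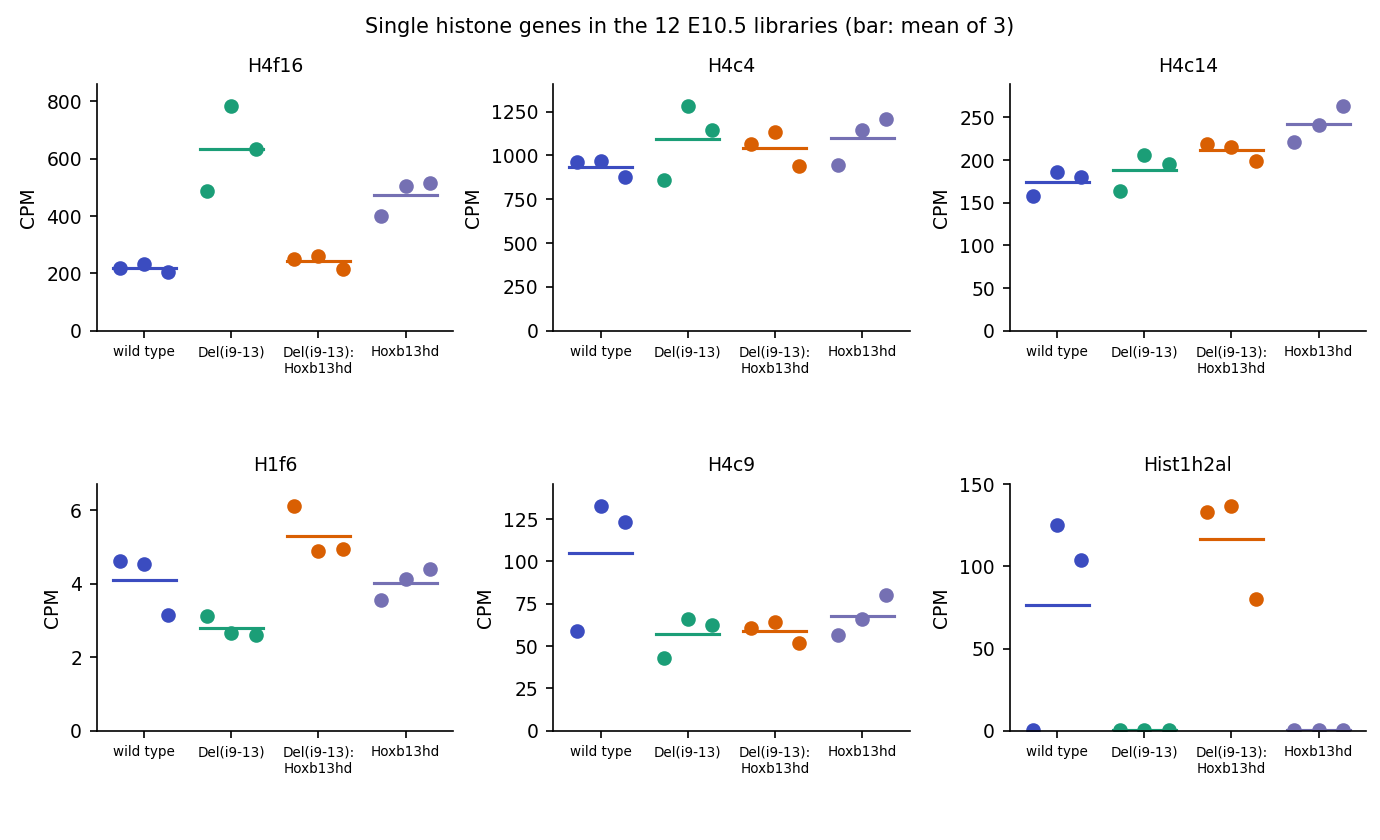
CPM (from 0; each panel has its own scale) of 6 histone genes in the 12 E10.5 libraries, 1 point per library, with the mean of the 3 as a bar. H4f16 lies at 401 to 782 CPM in the single mutants and at 204 to 261 CPM in wild type and the double mutant, while H4c4 overlaps in all groups; Hist1h2al is near 0 in 7 libraries.

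In the double mutant Del(i9-13):Hoxb13hd against wild type, no member was called. The count was 0 of 61 beside 0.401% of all genes, and 1 with DESeq2, beside 313 of all 32451 genes. An unadjusted p under 0.05 was reached by 6, beside 2156 of all 17202 genes. Of the 61, 47 were positive, beside 8644 of all genes. Their median was 0.10 against 0.00 for all genes, and 7 did not overlap between groups, against 21.5% of all genes. The largest log2 differences were those of H4c9 (lower) and Hist1h4m (higher), whose values are given with wild-type library 1 below.

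In Hoxb13hd against wild type, 2 of 61 members were called, H4f16 and H4c14, both higher, beside 3.01% of all genes. H4c14, the H4 gene of the Hist2 cluster at chr3:96261682-96263311 (mm10), stood at 158, 186 and 180 CPM in wild type, 163, 206 and 195 in Del(i9-13), 219, 215 and 199 in the double mutant and 222, 241 and 263 in Hoxb13hd. Its log2 change in Hoxb13hd was 0.47 ± 0.09 (1.38-fold, adjusted p = 0.0233, edgeR), and all 3 libraries lay above wild type. The call was lost without wild-type library 1 or 3 or without Hoxb13hd library 2 or 3 (adjusted p 0.0664 to 0.115). In the double mutant the same gene was 0.28 ± 0.09 above wild type (adjusted p = 0.268). Over the 61 members the median was 0.16 with 49 positive, beside 8695 of all 17202 genes. An unadjusted p under 0.05 was reached by 9, beside 3510 of all genes. DESeq2 called 5, beside 1194 of all 32451 genes, and 9 did not overlap, against 25.4% of all genes. H4 had the largest class median, 0.26, with 11 of 13 genes positive. Its summed CPM were 3966 to 5036 against 3555 to 3907 in wild type, and without H4f16, a sum made after its values were seen, 3565 to 4521 against 3351 to 3674, which overlap. H2bc11, a gene singled out after its values were seen, had the largest positive change among H2B genes, 0.50 ± 0.15 (adjusted p = 0.0992 with edgeR and 0.0224 with DESeq2). Its share of summed H2B CPM was 6.16 to 7.17% in wild type and 8.19 to 8.31% in Hoxb13hd. The share also lay above wild type in Del(i9-13), at 7.66 to 7.82%, and in the double mutant, at 7.48 to 7.76%.

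Set against the single mutants, the double mutant had few called members, and the direction of the median turned on single libraries. Against Hoxb13hd, 1 of 61 members was called (H4f16, lower), beside 0.959% of all genes. There 48 of 61 were negative, including 13 of 13 H4 genes, beside 9003 of all 17202 genes. The median was -0.07 against -0.01 for all genes (-0.15 to 0.02 with 1 library left out), and 4 did not overlap, against 22.6% of all genes. Against Del(i9-13), 2 of 61 were called, H4f16 lower and H1f6 higher, beside 0.907% of all genes. In that comparison 42 of 61 were negative, beside 9164 of all 17202 genes. The median was -0.04 against -0.02 for all genes (-0.19 to 0.08 with 1 library left out), and 5 did not overlap, against 20.3% of all genes. Without Del(i9-13) library 1, 5 of 61 were called, beside 1453 of all 17497 genes. These comparisons share libraries with the ones above and with each other.

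**Figure D5:**
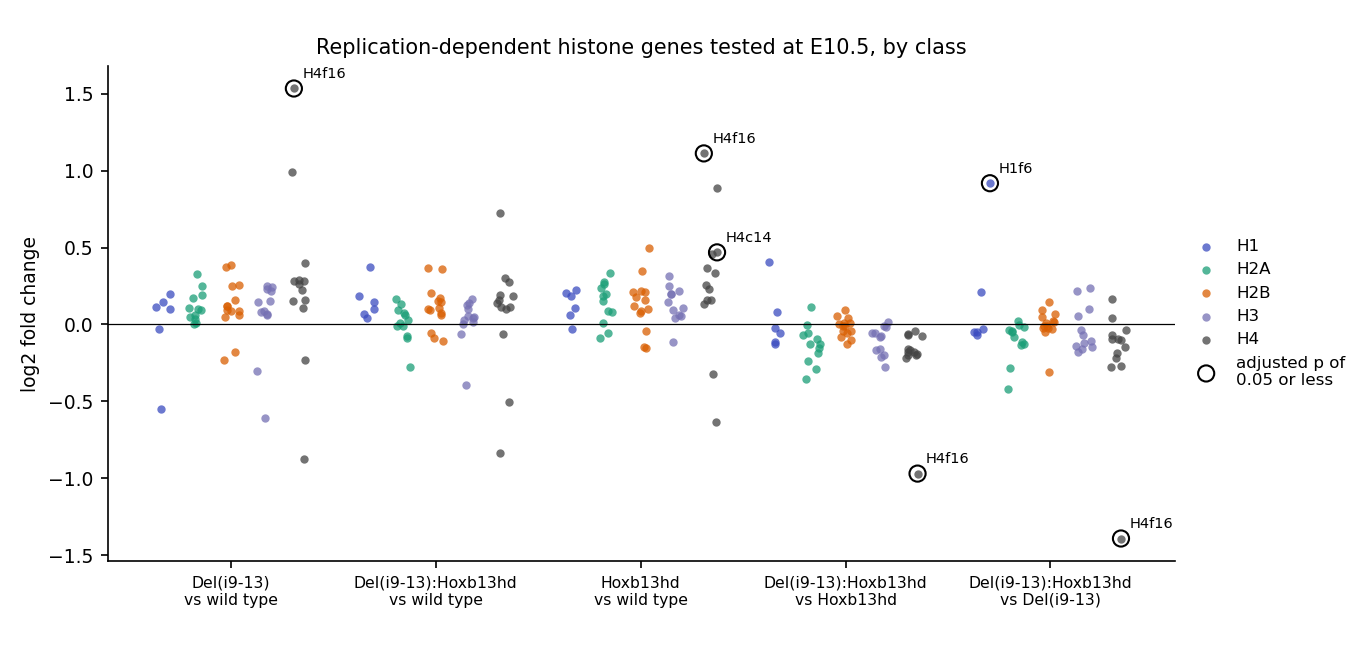
Log2 fold changes (edgeR) of the 57 replication-dependent genes tested at E10.5, 1 point per gene, by class and comparison; circled points have an adjusted p of 0.05 or less. The medians lie between -0.07 and 0.16, and H4f16 is circled in 4 of the 5; the comparisons share libraries.

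H1f6, the linker histone known from testis (chr13:23695814-23696725, mm10), was the other called member. It stood at 4.62, 4.53 and 3.16 CPM in wild type, 3.12, 2.67 and 2.62 in Del(i9-13), 6.10, 4.88 and 4.95 in the double mutant and 3.54, 4.12 and 4.39 in Hoxb13hd. The double mutant was 1.89-fold Del(i9-13) (log2 0.92 ± 0.18, adjusted p = 0.0330, edgeR), with no overlap. The call was lost without Del(i9-13) library 2 or 3, without any 1 of the double mutant's libraries, or with only these 2 groups in the fit (adjusted p 0.0666 to 0.145). Against wild type neither group was called (-0.55 ± 0.18, adjusted p = 0.335, and 0.37 ± 0.18, adjusted p = 0.410). Summed germ cell and oocyte markers were low in all groups, 1.92 to 2.19 CPM in Del(i9-13) and 2.03 to 2.52 CPM in the double mutant, with 0 of 4 markers at 0 throughout, and their part was not tested.

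The interaction of deletion and hd was called for 2 of 61 members, beside 0.523% of all genes. These were H4f16, above, and the processed pseudogene Hist1h2al (chr13:51202727-51203065, mm10). Of the 61, 50 were negative, beside 8651 of all 17202 genes. The median was -0.20 against 0.00 for all genes (-0.33 to -0.06 with 1 library left out). All 12 H2A and 11 of 13 H4 genes were negative, and for 49 of the 57 replication-dependent genes the deletion difference was smaller or more negative with hd than without. As these genes tended to move together within a library, such counts are not independent.

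Hist1h2al was either present or nearly absent in a library. It stood at 0.499, 125 and 104 CPM in wild type, 0.360, 0.543 and 0.380 in Del(i9-13), 133, 137 and 80.3 in the double mutant and 0.373, 0.331 and 0.370 in Hoxb13hd. Wild-type library 1 thus sided with both single mutants, and the other wild-type libraries with the double mutant. In counts, the 7 low libraries held 7 to 12 reads and the 5 high ones 1850 to 3499. The fitted interaction was 15.81 ± 2.41 on the log2 scale (adjusted p = 0.0401), a size set by the few counts of the low libraries. It was lost in 15 of 21 alternatives. In Del(i9-13) and Hoxb13hd against wild type the log2 values were -7.48 ± 1.67 (adjusted p = 0.152) and -7.72 ± 1.74 (adjusted p = 0.0583), and without wild-type library 1 both passed. The locus lies outside the Hist1 cluster, and 67.6% of its windows occur elsewhere, so the source of its reads is uncertain.

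Wild-type library 1 also stood apart in H4c9. That gene was at 59.1, 133 and 123 CPM in wild type, 43.2, 65.9 and 62.5 in Del(i9-13), 60.6, 64.0 and 52.0 in the double mutant and 56.8, 66.2 and 80.2 in Hoxb13hd. The log2 values against wild type were -0.88 ± 0.28 (adjusted p = 0.349), -0.83 ± 0.28 (adjusted p = 0.283) and -0.63 ± 0.28 (adjusted p = 0.240), and without wild-type library 1 those of Del(i9-13) (-1.16, adjusted p = 0.0149) and of the double mutant (-1.11, adjusted p = 0.0456) passed. Hist1h4n gave a like order within wild type (16.8, 33.7 and 28.9 CPM). Hist1h4m, its near-identical partner, gave the opposite order, with 11.6 and 10.1 CPM in libraries 2 and 3, both below library 1, and its log2 value in Del(i9-13) was 0.99 ± 0.27 (adjusted p = 0.215). Reads of that pair may be split between the copies, so neither value is certain.

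Of the linkers outside the replication-dependent class, H1f0 varied little. It stood at 303 to 383 CPM in all 12 E10.5 libraries and was called in no comparison, with log2 values from -0.0019 to 0.12 against wild type. H1f10, the other widely expressed replacement linker, was at 13.4, 17.2 and 17.7 CPM in wild type, 16.1, 14.5 and 15.4 in Del(i9-13), 19.9, 23.6 and 21.5 in the double mutant and 22.0, 19.2 and 20.2 in Hoxb13hd. Both groups with hd lay above both groups without it in every library. No comparison passed in the edgeR fit of all libraries with the filter on low counts (against wild type 0.43 ± 0.11, adjusted p = 0.140, and 0.35 ± 0.11, adjusted p = 0.109; the double mutant against Del(i9-13) 0.50 ± 0.11, adjusted p = 0.0610). With DESeq2 the first and the last passed (adjusted p = 0.0401 and 0.00503), and without Del(i9-13) library 1 the last passed with edgeR (adjusted p = 0.0204). The last also passed with edgeR without that filter (adjusted p = 0.0406). With limma on log2(FPKM + 0.1) and on log2(FPKM + 1) it passed too (adjusted p = 0.0348 and 0.0339), so that it passed in 5 of 16 alternatives. The germ-cell linkers H1f7 and H1f8 had 0 counts at E10.5.

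The machinery that makes and handles histone RNA and protein showed few calls. Of 31 tested genes for 3′ end processing and cell-cycle expression, 1 was higher in Hoxb13hd than in wild type, beside 3.01% of all genes called there (Snrpd3, a core Sm protein also found in the U7 particle, 0.46 ± 0.11, adjusted p = 0.0395). Another 1 of the 31 was higher in the double mutant than in Del(i9-13), beside 0.907% of all genes (Ncbp2, a cap-binding subunit, 0.40 ± 0.08, adjusted p = 0.0357). Slbp stood at 116 to 165 CPM over the 12 E10.5 libraries, with log2 values of -0.06 ± 0.11 in Del(i9-13), -0.17 ± 0.11 in the double mutant and -0.13 ± 0.11 in Hoxb13hd, none called. Lsm10, Lsm11, the U7-associated zinc finger Zfp473, Casp8ap2 and Npat were called in none of the 7 contrasts. The U7 RNA gene Rnu7 had 0 counts in every library.

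Of 9 replication-independent histone variants, 0 were called in any contrast (for Del(i9-13) against wild type at E10.5, 9 of 9 were positive with a median of 0.09). Of 24 histone chaperones, 1 was called: Hjurp, which loads the centromeric variant Cenpa, was lower in both groups with hd. It stood at 327, 251 and 232 CPM in wild type, 334, 278 and 303 in Del(i9-13), 150, 145 and 150 in the double mutant and 171, 170 and 156 in Hoxb13hd. The log2 changes were -0.87 ± 0.11 (adjusted p = 0.00350) and -0.71 ± 0.11 (adjusted p = 0.00929) against wild type, and -1.04 ± 0.11 (adjusted p = 0.000371) for the double mutant against Del(i9-13). In these comparisons 0.401%, 3.01% and 0.907% of all genes were called, in that order. Of 35 S phase and replication genes, 3 were higher in Hoxb13hd than in wild type (Cdt1, Ung and Uhrf1, by 0.29, 0.27 and 0.47), beside 3.01% of all genes, and 0 were called elsewhere. In the same comparison summed neuron markers were 104 to 168 CPM in Hoxb13hd against 187 to 291 in wild type, and summed tail bud markers 43.5 to 69.7 against 12.6 to 35.0, with 0 of 4 and 0 of 5 markers at 0 throughout, and their part was not tested. Of 22 G2 and M phase genes, 0 were called in any contrast, with 3 of 22 positive in Del(i9-13) at E10.5. The median of the S phase list was -0.04 in Del(i9-13), -0.01 in the double mutant and 0.11 in Hoxb13hd against wild type, beside 0.12, 0.10 and 0.16 for the 57 histone genes.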

How the data were processed

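Per the submitters' processing notes, the authors trimmed reads with cutadapt 1.18, aligned them to mm10 with STAR 2.7.10a and computed FPKM with Cufflinks 2.2.1. The deposited counts are whole reads per Ensembl gene. The strand setting and annotation behind them were not stated in the labels or notes, so overlapping genes and copies are uncertain. Reads that map to several copies may have been treated differently in the counts and in the FPKM.

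Members and context lists were chosen with earlier results of these data known. Symbols starting H1f also took in linkers that do not depend on replication, which were kept apart. Counts were fitted in R 4.3.3 with edgeR 4.0.16 (filterByExpr with minimum count 10 and total 15, TMM, robust quasi-likelihood, group means), all genes together, 6 libraries at E9.5 and 12 at E10.5, two-sided. CPM use TMM-scaled totals. DESeq2 1.42.0 on counts and limma 3.58.1 on log2(FPKM + 0.1) and log2(FPKM + 1) of the deposited FPKM were alternatives. The edgeR fit was tested on simulated data. Named are called members, the 3 highest FPKM per class and stage, the 3 largest changes per comparison, the linkers outside the class, called genes of each context list, and a few processing genes. Hairpins and shared windows were searched in GENCODE M21 transcripts, in place of a genome, and 71 of the 73 members had the same coordinates there as in the deposited FPKM table.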

Additional observations from a re-analysis of the deposited data

Results flagged for a closer look

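The effect of the deletion at E10.5 differed with and without hd for 2 histone genes, by the interaction term of the edgeR fit over all genes. For H4f16 it was -2.50 on the log2 scale (adjusted p = 6.85e-05), with all 3 libraries of each single mutant above wild type and above the double mutant, and the call held in all 21 alternatives (-2.65 to -2.32). For the pseudogene Hist1h2al it was 15.81 (adjusted p = 0.0401), with 1 wild-type library near 0 like both single mutants, and the call was lost in 15 of 21 alternatives.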

How the results depend on the processing

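Of the log2 values recomputed for named members, those of H1f0 and H1f10 that lay near 0 changed direction and no others did. Without 1 library at a time, H1f0 ran from -0.081 to 0.092 at E9.5 and from -0.051 to 0.046 in Hoxb13hd against wild type (0.0039 with totals without the histone genes), and H1f10 from -0.18 to 0.0082 in Del(i9-13) against wild type at E10.5. The median of the members tested crossed 0 when a library was left out, running from -0.0025 to 0.26 for Del(i9-13) against wild type, from -0.15 to 0.02 for the double mutant against Hoxb13hd and from -0.19 to 0.08 for it against Del(i9-13). The counts of called histone genes moved as follows. At E9.5 the count was 1 without a filter on low counts, beside 537 of all 29002 genes. With DESeq2 it was 3 for Del(i9-13), 1 for the double mutant and 5 for Hoxb13hd against wild type, 2 for the double mutant against Hoxb13hd and 4 against Del(i9-13) (beside 266, 313, 1194, 644 and 675 of all 32451 genes, in that order). With limma on log2(FPKM + 0.1) without a filter it was 1 for Hoxb13hd against wild type and 0 for the double mutant against Hoxb13hd. For the interaction it was 1. All genes called there numbered 132, 43 and 47 of 30186, in that order. With the filter, limma on log2(FPKM + 0.1) and on log2(FPKM + 1) also gave 1 for the interaction. With only the 2 compared groups in the fit it was 4 for Hoxb13hd against wild type and 2 for the double mutant against Hoxb13hd (beside 333 of all 16447 and 317 of all 16349 genes).

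Leaving out 1 library at a time gave 0 to 0 called members at E9.5, beside 40 to 53 of all genes. At E10.5, against wild type, it gave 1 to 4 for Del(i9-13), 0 to 1 for the double mutant and 1 to 2 for Hoxb13hd. All genes called in these refits numbered 40 to 285, 14 to 41 and 51 to 676, in that order. The double mutant had 0 to 1 against Hoxb13hd and 1 to 5 against Del(i9-13), and the interaction had 1 to 3. All genes called there numbered 36 to 412, 58 to 1453 and 40 to 174. Over all alternatives, the number of all genes called ran from 20 to 537 at E9.5 (58 as reported), from 40 to 285 (84), 14 to 313 (69) and 51 to 1194 (517) for Del(i9-13), the double mutant and Hoxb13hd against wild type, from 36 to 644 (165) and 58 to 1453 (156) for the double mutant against Hoxb13hd and Del(i9-13), and from 40 to 287 for the interaction (90). Deviations of same-numbered libraries had correlations of -0.25 to 0.18 at E10.5 and 0.01 to 0.13 at E9.5. For differently numbered libraries they were -0.27 to 0.26 and -0.23 to 0.13. Values this weak cannot show whether the numbers pair libraries. A replicate block moved the E9.5 median log2 of the members tested from 0.10 to 0.19. With the replicate number as a block the interaction called 1 member, H4f16, and no other count of called members changed by over 1.5 times.

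Library scaling with RLE and totals without the histone genes changed no count of called members by that much. At E9.5 the few histone reads (614 to 1148 replication-dependent counts per library) limit the values, although these libraries are the deeper ones: the median coefficient of variation of the 19 tested genes in wild type was 31.7%, and counting alone gives 27.7%. At E10.5 the shared movement of a library limits them. Mapping to near-identical copies limits single genes at both stages.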

Other observations

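Within 3 Mb of H4f16, a window chosen after its values were seen, 3 of 38 tested genes were called in Del(i9-13) against wild type at E10.5 (Emp1, Hebp1 and Gsg1), beside 0.488% of all genes tested. Emp1, a membrane protein gene, stood at 15.1, 15.5 and 18.0 CPM in the wild-type libraries and at 28.6, 34.8 and 33.6 CPM in Del(i9-13), with 16.7 to 18.9 CPM in the double mutant and 19.6 to 20.4 CPM in Hoxb13hd. Its log2 change in Del(i9-13) was 0.99 ± 0.10 (adjusted p = 0.000216, edgeR), and its interaction of deletion and hd was -1.15 ± 0.14 (adjusted p = 0.00136). Hebp1, a heme-binding protein gene, was higher in both single mutants (0.92 ± 0.17, adjusted p = 0.0330, and 0.82 ± 0.17, adjusted p = 0.0277), and Gsg1 was lower in Del(i9-13) (-1.54 ± 0.30, adjusted p = 0.0410). The interaction was called for 5 of these 38 genes, beside 0.523% of all genes tested. The counts were 0 of 38 in the double mutant and 3 of 38 in Hoxb13hd against wild type, 1 of 38 in the double mutant against Hoxb13hd and 4 of 38 in it against Del(i9-13), beside 0.401%, 3.01%, 0.959% and 0.907% of all genes.

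The histone variant gene H2aj, next to H4f16 on chromosome 6, had 11.9 to 18.0 CPM in the wild-type libraries, 16.9 to 23.4 in Del(i9-13), 12.9 to 16.3 in the double mutant and 15.3 to 19.7 in Hoxb13hd. Its log2 values were 0.49 ± 0.16 in Del(i9-13) (adjusted p = 0.337) and 0.22 ± 0.17 in Hoxb13hd (adjusted p = 0.507) against wild type, and -0.68 ± 0.23 for the interaction (adjusted p = 0.262).

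Around Hist1h2al, 2 of 41 tested genes within 3 Mb (Id4 and Ror2) were called in Hoxb13hd against wild type, beside 3.01% of all genes, and 2 of 41 (Id4 and 6720427I07Rik) in the double mutant against Hoxb13hd, beside 0.959%. The other 4 contrasts at E10.5 had 0 of 41. Around H4c9, 2 of 41 (Ripor2 and Zfp322a) were called in Hoxb13hd against wild type, 1 (Ripor2) in the double mutant against Hoxb13hd and 1 (Zkscan8) in it against Del(i9-13), beside 3.01%, 0.959% and 0.907% of all genes, and 0 of 41 in the other 3 contrasts at E10.5. The same genes were called in the same contrasts around H1f6, out of 38 tested. Around H4c14, 0 of 117 were called in Hoxb13hd against wild type, where H4c14 itself was called. In the double mutant against Hoxb13hd 2 of 117 were called there (Tbx15 and Mllt11), and 0 of 117 in every other contrast at E10.5.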
